A study of Bos taurus with 10 samples.

Results

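Chromatin remodellers and bromodomain genes were examined in single bovine early blastocysts with and without *SOX2*. The members were the genes whose symbol begins with SMARC, ARID1, INO80, CHD plus a digit or BRD plus a digit, or is ARID2, MTA1 to MTA3 or MBD2 to MBD6, with a mean of at least 1 normalized read count over the 10 embryos. In all, 47 of the 20112 genes of the table had such a symbol, and all 47 reached that mean. They were tested together with the other genes that reached it, 20056 in total. Most members encode subunits or relatives of remodelling complexes, or bromodomain proteins. *MBD4*, *MBD5* and *MBD6* are methyl-CpG binding domain genes outside these complexes, and *BRD3OS* is named for its place on the strand opposite *BRD3* and was matched by its symbol alone.

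Remodelling complexes use the energy of ATP to slide, evict or exchange nucleosomes, and they fall into the SWI/SNF, ISWI, CHD and INO80 families after their ATPase. Bromodomains bind acetylated lysines on histones and bring transcription and acetylation complexes to open chromatin. In mammalian early embryos and pluripotent cells, the SWI/SNF ATPase BRG1, the NuRD complex and CHD1 are known for their roles in lineage specification and in keeping pluripotency genes active.

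Both groups consisted of early blastocysts whose age the labels give as day 7.0 after fertilization, and whose collection the study's methods place at D7.5. All 10 embryos were injected at the zygote stage with mRNA of BE3, a cytosine base editor that turns C into T at sites chosen by a guide RNA. The 5 WT embryos (nc1 to nc5) received BE3 mRNA alone, and the 5 *SOX2* KO embryos (ko1 to ko5) also received sgRNAs that create premature stop codons in *SOX2*. Each library was made by Smart-seq2 from the polyA RNA of 1 whole embryo, so trophectoderm and inner cell mass were measured together. Editing after fertilization can leave mosaic embryos, and gene-level counts carry no information on which bases were edited. The study's authors checked the genotype of every sequenced blastocyst on part of its cDNA.

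The WT embryos had 2223670 to 5134855 recovered reads each, and the *SOX2* KO embryos 2578284 to 4337342. The 18S rRNA gene *RN18S1* accounted for 26.4% to 37.0% of these among the WT and for 32.5% to 45.0% among the *SOX2* KO embryos. *XIST* stood at 11.9 in nc2 and 33.7 in ko4, against 429 to 2819 in the other embryos. The targeted gene *SOX2* was at 56.5, 93.4, 83.5, 73.0 and 84.4 in WT and at 39.0, 26.4, 64.0, 82.1 and 71.5 in *SOX2* KO embryos (log2 fold change -0.55, limma adjusted p = 0.167), so its transcript level did not separate the groups. Of the 9 epiblast markers tested, 5 were called lower and 0 higher in *SOX2* KO, and their summed level was 2560 to 3029 among the WT and 1213 to 1718 among the *SOX2* KO embryos. Of the 12 trophectoderm markers, 2 were called higher and 0 lower, with sums of 26196 to 38873 and 36755 to 50657. The 10 primitive endoderm markers included 1 called higher and 3 called lower, with sums of 1845 to 2362 and 2229 to 2627. Among markers of cells outside the embryo, the 9 for cumulus or granulosa cells had 0 calls and sums of 47.5 to 155 and 91.2 to 470, and the 4 for sperm had 1 call, higher, and sums of 1.48 to 36.6 and 4.11 to 17.4. *CYP11A1* differed most among the former, with means of 45.6 in WT and 265 in *SOX2* KO embryos but 1.64 in ko4. The sperm call was *AKAP4*, with 0 reads over the WT and 13 over the *SOX2* KO embryos. The part of these markers in the results on remodellers was not tested, and in whole embryos fewer cells of a type and less RNA per cell cannot be told apart.

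The remodeller genes as a group were close to the WT level in *SOX2* KO blastocysts. A gene was called when its adjusted p did not exceed 0.05 and its level changed 2-fold or more either way (limma, log2(normalized read count + 1), Benjamini-Hochberg over all 20056 genes). By this rule *CHD3* and *SMARCD3* rose and no member fell. The 2 members called higher were 4.26% of the 47, beside 8.93% of all tested genes, and the 0 called lower compare with 1.16% of all genes. DESeq2 and edgeR on the recovered reads also called 0 members lower, and 8 members (17.0%) had an unadjusted limma p under 0.05 in that direction, beside 8.37% of all genes and 13.9% of those with a mean of 10 or more. In the other direction 5 members (10.6%) did, beside 24.0% of all genes. With a mean of 10 or more, 8 of 44 members (18.2%) had such a p as lower and 4 as higher, the latter beside 1697 of 11334 genes. With the adjusted p alone, 2 members passed as higher (10.4% of all genes) and 2 as lower, *SMARCAD1* and *INO80D* (3.20% of all genes). When low genes were set aside by asking for a mean of 10 or more, which keeps 44 members, 4.97% of all genes were called higher and 1.90% lower, beside the same 2 and 0 members.

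The median log2 fold change of the members was -0.04, against 0.25 for all tested genes. With a mean of 10 or more it was -0.06 for the members and -0.04 for all genes. Of the 47 members, 28 (59.6%) lay below 0 and 19 above, and the values ran from -0.66 for *MTA3* to 1.46 for *BRD3OS*. Among all tested genes 37.1% lay below 0. With a mean of 10 or more, 63.6% of the members and 53.1% of all genes did. With other scalings the median moved between -0.16 (equal totals) and 0.06 (median log ratio of genes with a high mean), so its sign depends on the scaling. A log2 fold change of less than 0.5 in size was found for 36 members (76.6%), beside 49.9% of all tested genes. With a mean of 10 or more, it was found for 81.8% of the members and 68.7% of all genes. The 95% interval of the log2 fold change lay wholly between -1 and 1, that is within a fold change of 2 either way, for 37 of 47 members (78.7%) and for 35.2% of all genes. Once genes with a mean below 10 were left out, it did so for 37 of 44 members (84.1%) and 62.1% of all genes. For the members, the median SD of the log2 value between embryos was 0.264 in WT and 0.277 in *SOX2* KO embryos, against 0.510 and 0.579 for all tested genes. With a mean of 10 or more, it was 0.253 and 0.270 for the members and 0.356 and 0.351 for all genes. Mean level was not matched in these comparisons. Its median was 107 for the members and 17.0 for all genes, and with a mean of 10 or more 115 and 73.6.

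**Figure D1:**
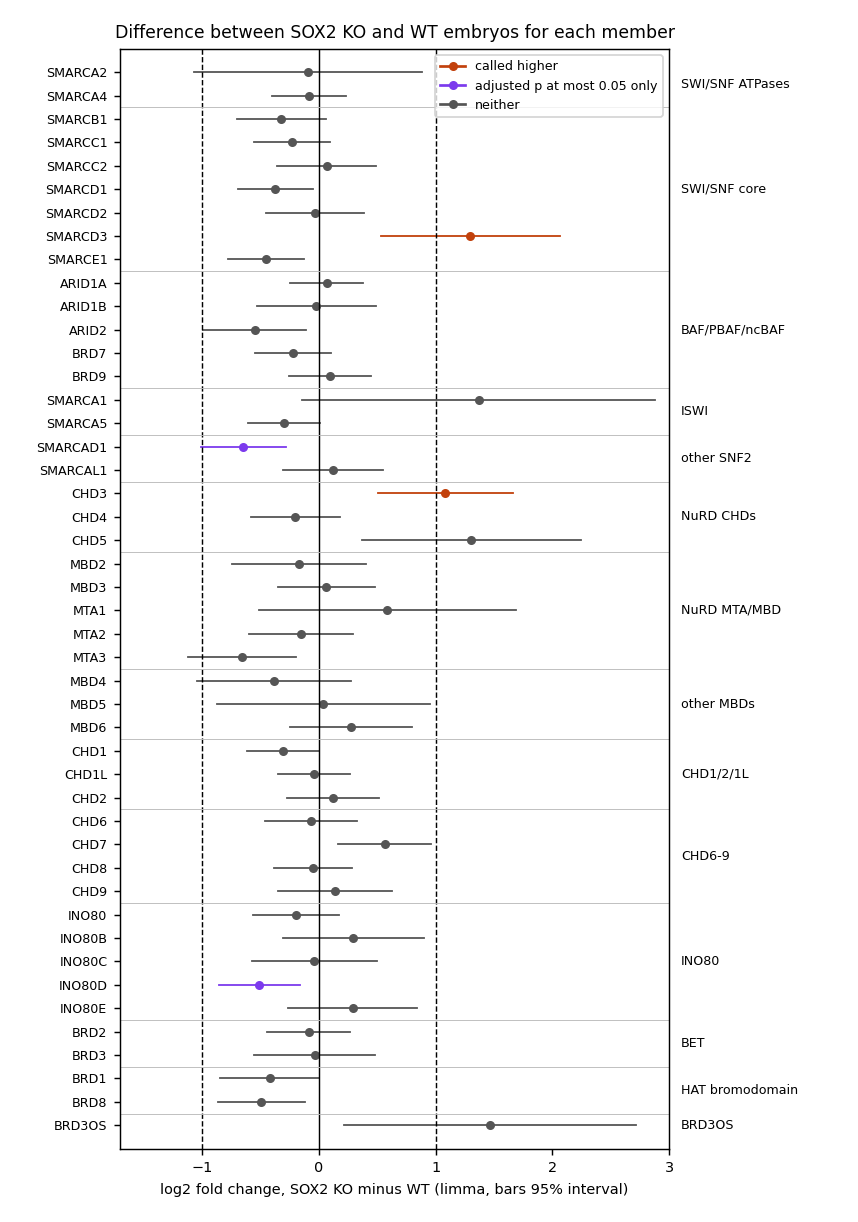
Log2 fold change (*SOX2* KO minus WT, x axis) of 46 of the 47 members, listed by complex on the y axis, with bars for the 95% interval of limma and dashed lines at a fold change of 2 either way. *CHD3* and *SMARCD3* lie beyond the right line and were called higher, and *CHD5*, *SMARCA1* and *BRD3OS* lie beyond it without being called. *SMARCAD1* and *INO80D* passed the adjusted p only, and most other intervals stay between the lines.

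The sign of the change went with the mean level, in the members as in all genes. Of the 7 members with a mean below 20, 6 lay above 0 with a median of 1.30 over the 7, while 80.7% of the 10422 genes in that range lay above 0 with a median of 0.84. Of the 15 members with a mean from 20 to 100, 7 lay above 0 and the median was -0.02, beside 48.7% and -0.02 for all genes. At a mean of at least 100, 6 of 25 members lay above 0 and the median was -0.20, beside 38.0% and -0.11. *SMARCD3*, *CHD5*, *SMARCA1* and *BRD3OS*, which had the 4 highest log2 fold changes, all belong to the lowest range.

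**Figure D2:**
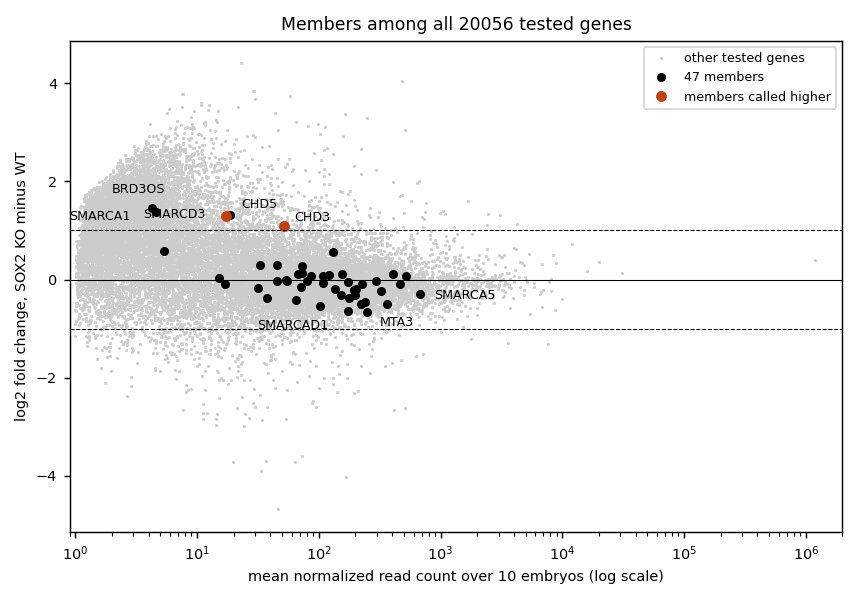
Log2 fold change (*SOX2* KO minus WT, y axis) against the mean normalized read count over 10 embryos (x axis, log scale) for all 20056 tested genes in grey, the members in black and the called members in red. Members with a mean below 20 sit mostly above 0, where the grey cloud also lies, and members with a mean of at least 100 sit mostly below 0.

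In single embryos, the summed normalized read count of the 47 members was 6927 to 8029 among the WT and 6362 to 7219 among the *SOX2* KO embryos. As a share of reads other than those of *RN18S1*, the members took 0.310% to 0.395% in the first group and 0.286% to 0.313% in the second. Both measures overlapped between the groups. As a share of all reads, *RN18S1* included, the members took 0.211% to 0.249% in WT embryos and 0.169% to 0.203% in those without *SOX2*, and the groups did not overlap. Between 14 (29.8%, ko4) and 27 (57.4%, ko5) members per *SOX2* KO embryo lay outside the range of the 5 WT embryos, beside 38.6% and 56.5% of all tested genes in the same embryos. By direction, 8 to 15 members per embryo lay below that range and 5 to 13 above it, with more below in every *SOX2* KO embryo. All tested genes went the other way in every *SOX2* KO embryo, with 3087 to 3446 below and 4613 to 8381 above. Members and all genes were not matched for mean level (median 107 and 17.0), with which the sign of the change went. The map of members by embryo shows rows rather than columns standing out: *CHD3*, *CHD5* and *SMARCD3* were well above the WT mean in several *SOX2* KO embryos while most rows stayed near the WT mean.

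**Figure D3:**
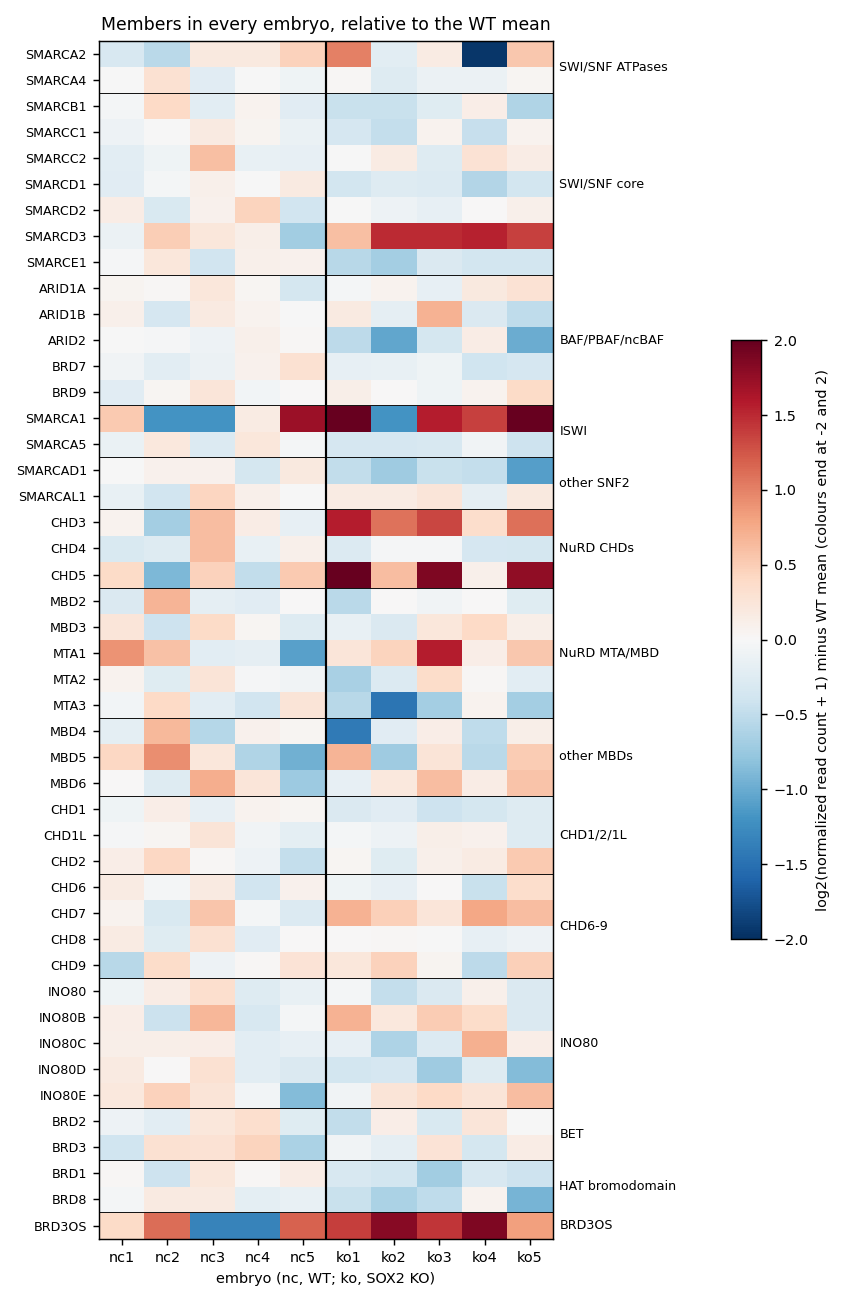
Each row is 1 of 46 members, grouped by complex, and each column an embryo (nc, WT, and ko, *SOX2* KO). Colour gives log2(normalized read count + 1) minus the WT mean and ends at -2 and 2. Most rows are pale in all 10 embryos, and most of the strongest colours belong to members with a mean below 20 and to *CHD3*.

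The ATPase of SWI/SNF is SMARCA4 (BRG1) or its paralog SMARCA2 (BRM). *SMARCA4* was at 230, 288, 199, 232 and 219 in WT and at 236, 194, 213, 214 and 238 in *SOX2* KO embryos. All 5 *SOX2* KO values lay inside or within a few counts of the WT range, and the log2 fold change was -0.09 (95% interval -0.40 to 0.23, limma adjusted p = 0.728). *SMARCA2* was at 12.2, 10.4, 17.9, 17.9 and 21.8 in WT and at 32.3, 13.2, 17.4, 3.29 and 23.1 in *SOX2* KO embryos. It was highest in ko1 and lowest in ko4, and its log2 fold change of -0.09 had a wide interval, -1.07 to 0.89 (limma adjusted p = 0.915). Reads of *SMARCA4* may be shared with a gene whose span overlaps it, *LOC107132610*, which was called higher at low counts (1.84 in WT and 8.77 in *SOX2* KO, log2 fold change 1.94, limma adjusted p = 0.0447).

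Among the core and accessory subunits of SWI/SNF, the clearest difference was in the SMARCD position, which links the complex to transcription factors. *SMARCD3* (BAF60C), best known from heart and muscle development, was at 8.39, 13.3, 10.9, 10.1 and 5.31 in WT and at 14.5, 27.7, 27.9, 28.8 and 25.4 in *SOX2* KO embryos. All 5 *SOX2* KO embryos lay above all 5 WT embryos, with ko1 only just above nc2. *SMARCD3* rose 2.46-fold on the log2(normalized read count + 1) scale, from 9.62 ± 3.0 to 24.8 ± 5.93 (SD, n = 5 each, log2 fold change 1.30, SE 0.37, limma adjusted p = 0.0254). The totals behind them are 53 reads over the WT and 115 over the *SOX2* KO embryos. The call was lost without nc1, nc5, ko3 or ko5 (adjusted p 0.0532 to 0.0652), with quantile normalization (log2 fold change 0.89, adjusted p = 0.187) and with the *RN18S1* share as a covariate (1.19, adjusted p = 0.245).

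*SMARCD1*, the alternative subunit at the same position, had group means of 199 ± 21.0 in WT and 153 ± 13.5 in *SOX2* KO embryos (SD, n = 5 each). The 5 *SOX2* KO embryos, 131 to 165, lay below the 5 WT embryos, 169 to 224, but the log2 fold change of -0.37 did not pass (limma adjusted p = 0.104). *SMARCD2*, the remaining paralog, had a log2 fold change of -0.03 (limma adjusted p = 0.929).

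*SMARCE1* (BAF57), an HMG-box subunit that binds DNA, was at 271, 323, 213, 297 and 293 in WT and at 188, 173, 227, 214 and 213 in *SOX2* KO embryos. Only nc3 came down to the level of the *SOX2* KO embryos, and the log2 fold change of -0.45 missed the threshold (SE 0.16, limma adjusted p = 0.0599). *SMARCB1* (SNF5), a core subunit and tumour suppressor, was at 164, 221, 145, 177 and 143 in WT and at 124, 123, 142, 184 and 111 in *SOX2* KO embryos. All *SOX2* KO embryos but ko4 lay below the WT range, ko3 only just, and the log2 fold change was -0.32 (limma adjusted p = 0.227). The scaffold subunits *SMARCC1* and *SMARCC2* were at -0.23 and 0.07 on the log2 fold change scale (limma adjusted p = 0.319 and 0.849).

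The subunits that tell BAF, PBAF and ncBAF apart gave 0 calls among 5 members. *ARID1A*, the subunit of BAF that is often mutated in cancer, was at 530, 518, 593, 524 and 400 in WT and at 493, 536, 454, 582 and 619 in *SOX2* KO embryos. The groups overlapped over most of their ranges, with a log2 fold change of 0.07 (95% interval -0.24 to 0.38, limma adjusted p = 0.784). *ARID2*, which defines PBAF, was at 120, 119, 111, 129 and 122 in WT and at 83.5, 58.1, 94.2, 133 and 60.0 in *SOX2* KO embryos. The WT embryos lay close together, and 4 *SOX2* KO embryos were below all of them while ko4 was above (log2 fold change -0.55, SE 0.21, limma adjusted p = 0.0851). *ARID1B* had a log2 fold change of -0.02, *BRD7* of PBAF -0.22 and *BRD9* of ncBAF 0.10.

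The ISWI ATPases are SMARCA5 (SNF2H) and SMARCA1 (SNF2L), which space nucleosomes evenly. *SMARCA5* was at 672, 859, 608, 866 and 721 in WT and at 583, 585, 590, 702 and 555 in *SOX2* KO embryos. All *SOX2* KO embryos but ko4 lay below the lowest WT embryo, and the log2 fold change was -0.30 (95% interval -0.60 to 0.01, limma adjusted p = 0.170). *SMARCA1* was listed at 0 in nc2, nc3 and ko2, and reached at most 6.49 in WT and 13.8 in *SOX2* KO embryos (log2 fold change 1.37, SE 0.73, limma adjusted p = 0.195). Without ko2 it passed as higher (2.01, adjusted p = 0.0454).

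A pair of SNF2-like ATPases lies outside those families, SMARCAD1, known for restoring silent chromatin after replication and for DNA repair, and SMARCAL1, which remodels stalled replication forks. *SMARCAD1* was at 208, 221, 221, 163 and 240 in WT and at 148, 127, 153, 150 and 96.9 in *SOX2* KO embryos. Every *SOX2* KO embryo was below every WT embryo, with nc4 the nearest to them. Its log2 fold change of -0.64 passed the adjusted p but not the fold change threshold (211 ± 28.9 against 135 ± 23.8, SD, n = 5 each, SE 0.17, limma adjusted p = 0.0208). The adjusted p no longer passed without nc5 (0.0535) or ko5 (0.0684), or with the *RN18S1* share as a covariate (-0.46, adjusted p = 0.318). *SMARCAL1* had a log2 fold change of 0.12 (limma adjusted p = 0.719).

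The CHD ATPases of the NuRD complex, CHD3, CHD4 and CHD5, replace each other in the complex, which couples remodelling to histone deacetylation. *CHD3* was at 32.8, 19.3, 48.7, 35 and 27.7 in WT and at 94.6, 67.3, 80.2, 40.3 and 68.0 in *SOX2* KO embryos. All *SOX2* KO embryos except ko4 lay above the highest WT embryo, nc3. *CHD3* rose 2.12-fold, from 32.7 ± 10.8 to 70.1 ± 20.05 (SD, n = 5 each, log2 fold change 1.08, SE 0.28, limma adjusted p = 0.0160). Its fold change stood close to the threshold of 2, and the call was lost without nc2 (log2 fold change 0.92, adjusted p = 0.0417) or ko1 (0.96, adjusted p = 0.0551), and with the *RN18S1* share as a covariate (0.67, adjusted p = 0.349). It was also just under the threshold of 2-fold with equal totals (0.964), by edgeR and with *XIST* as a covariate (both 0.996). Without ko4, 1 of the embryos with little *XIST*, the log2 fold change of *CHD3* was 1.27 and that of *SMARCD3* 1.24, and both were called (adjusted p = 0.00395 and 0.0317). *RNF227*, whose span overlaps *CHD3*, had group means of only 1.67 and 2.57.

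*CHD5*, a paralog known mainly from neurons and testis, was at 12.2, 4.45, 12.9, 6.22 and 13.6 in WT and at 44.5, 14.5, 36.0, 9.86 and 33.4 in *SOX2* KO embryos. It was high in ko1, ko3 and ko5, whereas ko2 was just above and ko4 within the WT range. The log2 fold change of 1.31 just missed the threshold (SE 0.45, limma adjusted p = 0.0567), and *CHD5* was called without nc3, ko2 or ko4 (adjusted p 0.0141 to 0.0485), by DESeq2 (1.45, adjusted p = 0.0238) and by edgeR (1.34, adjusted p = 0.0455). With *XIST* as a covariate *CHD5* was also called (limma, 1.17, adjusted p = 0.0418). It was not called with the *RN18S1* share as a covariate (0.71, adjusted p = 0.580) or quantile normalization (1.09, adjusted p = 0.111). *CHD4*, the usual ATPase of NuRD in embryonic stem cells, was at 172, 178, 329, 193 and 230 in WT and at 177, 211, 210, 170 and 167 in *SOX2* KO embryos. Apart from a high nc3, the groups covered the same range, with a log2 fold change of -0.20 (95% interval -0.58 to 0.18, limma adjusted p = 0.462).

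**Figure D4:**
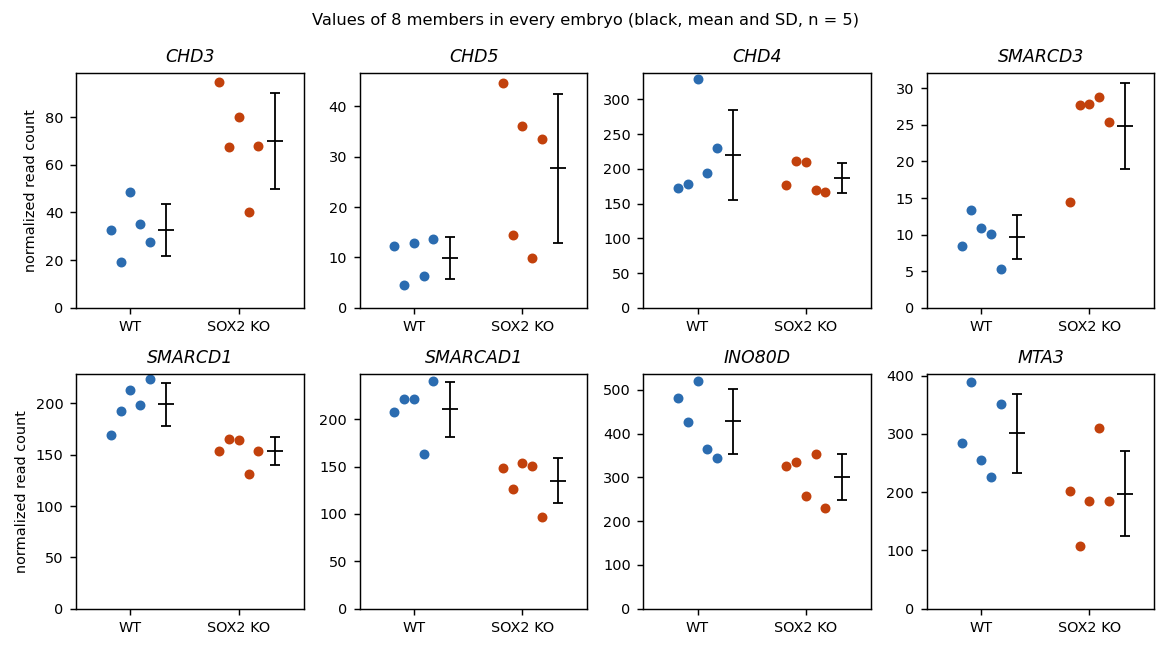
Normalized read count (y axis, from 0) of 8 members in each WT embryo (blue) and *SOX2* KO embryo (red), with the mean and SD of each group in black (n = 5). *SMARCD3* is higher and *SMARCAD1* and *SMARCD1* are lower in all *SOX2* KO embryos without overlap, while ko4 falls within the WT range for *CHD3*, *CHD5*, *INO80D* and *MTA3*.

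The other NuRD members, the MTA scaffolds and the methyl-CpG proteins MBD2 and MBD3, gave 0 calls among 5. *MTA3* was at 284, 389, 256, 226 and 352 in WT and at 202, 107, 185, 311 and 184 in *SOX2* KO embryos. All *SOX2* KO embryos but ko4 were below the WT embryos, and ko4 was among the higher values, with a log2 fold change of -0.66 (SE 0.22, limma adjusted p = 0.0542). Without ko4 the change was -0.84 and the adjusted p 0.00867. *MBD3*, the subunit that holds NuRD together in pluripotent cells, was at 124, 78.6, 137, 107 and 87.9 in WT and at 94.6, 85.8, 123, 139 and 114 in *SOX2* KO embryos. The groups overlapped over most of their ranges (log2 fold change 0.06, 95% interval -0.35 to 0.48, limma adjusted p = 0.853). *MBD2* had a log2 fold change of -0.17, *MTA2* of -0.15 and *MTA1*, with group means of 4.17 and 6.48, of 0.59.

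Outside NuRD, *MBD4*, a DNA glycosylase, *MBD5* and *MBD6* differed by -0.38, 0.04 and 0.28 on the log2 scale (limma adjusted p from 0.416 to 0.962).

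CHD1, which binds methylated lysine 4 of histone H3 at active genes, is needed for the open chromatin of mouse embryonic stem cells. *CHD1* was at 208, 243, 196, 233 and 227 in WT and at 180, 189, 166, 173 and 184 in *SOX2* KO embryos. The groups did not overlap, with ko2 next to nc3, but the difference was small and did not pass (log2 fold change -0.31, SE 0.15, limma adjusted p = 0.152). *CHD2* and *CHD1L* had log2 fold changes of 0.12 and -0.04.

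In the CHD6 to CHD9 group, *CHD7*, the gene of CHARGE syndrome and a known partner of SOX2 in neural stem cells, was at 108, 83.0, 152, 100 and 85.0 in WT and at 168, 144, 122, 177 and 159 in *SOX2* KO embryos. A high nc3 overlapped with ko2 and ko3, and the other WT embryos lay below all *SOX2* KO embryos. The log2 fold change of 0.56 did not pass (SE 0.19, limma adjusted p = 0.0539). *CHD6*, *CHD8* and *CHD9* differed by -0.07, -0.05 and 0.14 on the log2 scale (limma adjusted p from 0.71 to 0.866).

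In the INO80 complex, which exchanges histone H2A variants, *INO80D* was at 481, 427, 521, 364 and 345 in WT and at 326, 335, 258, 353 and 231 in *SOX2* KO embryos. The groups met at nc5 and ko4, and the other *SOX2* KO embryos were below all WT embryos. *INO80D* passed the adjusted p but not the fold change threshold, with a log2 fold change of -0.51 (428 ± 74.7 against 301 ± 53.2, SD, n = 5 each, SE 0.17, limma adjusted p = 0.0472). When 1 embryo was left out, it passed in 3 of 10 fits, those without nc5, ko2 or ko4, and the adjusted p reached 0.136 without ko5. It also did not pass with quantile normalization (adjusted p = 0.0965) or the *RN18S1* covariate (adjusted p = 0.338). *INO80*, the ATPase, was at 135, 159, 182, 120 and 129 in WT and at 139, 103, 117, 154 and 118 in *SOX2* KO embryos. The groups overlapped widely (log2 fold change -0.20, 95% interval -0.56 to 0.17, limma adjusted p = 0.458). *INO80B*, *INO80C* and *INO80E* had log2 fold changes of 0.30, -0.04 and 0.29.

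BRD2 and BRD3 belong to the BET proteins, which read histone acetylation at active genes. *BRD2* and *BRD3* had log2 fold changes of -0.09 and -0.03, and neither passed the test (limma adjusted p = 0.761 and 0.941). *BRD3OS*, whose span overlaps *BRD3*, was listed at 0 in nc3 and nc4 and was at 3.46 to 8.21 in *SOX2* KO embryos (log2 fold change 1.46, SE 0.60, limma adjusted p = 0.0999). The strand of these few reads cannot be told from the counts.

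The bromodomain proteins of acetyltransferase complexes were both lower on average in *SOX2* KO embryos without passing the test. *BRD8*, a subunit of the TIP60 complex, was at 249, 289, 289, 223 and 231 in WT and at 186, 164, 178, 269 and 133 in *SOX2* KO embryos. As with *ARID2* and *MTA3*, ko4 was at the WT level and the other *SOX2* KO embryos were below it (log2 fold change -0.49, SE 0.18, limma adjusted p = 0.0697). *BRD1*, which directs the acetyltransferase HBO1, had a log2 fold change of -0.42 (limma adjusted p = 0.156).

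Separation of the groups in every embryo was thus seen for 4 members. *SMARCD3* was the 1 member with all *SOX2* KO embryos above all WT embryos (2.13% of 47), beside 6.41% of all tested genes. *SMARCAD1*, *SMARCD1* and *CHD1* were the 3 with all *SOX2* KO embryos below (6.38%), beside 2.76% of all genes. These shares of all genes were not matched for mean level, with which the sign of the change went.

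To compare paralogs without the scaling of the embryos, the log2 ratio of paired members was taken within each embryo for 12 pairs of paralogs or related subunits. A ratio of read counts also holds the ratio of transcript lengths, so that its difference between groups, not its level, is informative. The log2 ratio of *CHD4* to *CHD3* was 2.36, 3.14, 2.73, 2.43 and 3.0 in WT and 0.90, 1.64, 1.38, 2.05 and 1.28 in *SOX2* KO embryos. Every *SOX2* KO embryo was below every WT embryo, and the mean went from 2.73 ± 0.34 to 1.45 ± 0.43 (SD, n = 5 each, difference -1.28, two-sided exact permutation p = 0.00794, the smallest that 5 against 5 embryos can give). After Benjamini-Hochberg adjustment over the 12 pairs the exact permutation p was 0.0952. Since *CHD3* was called by itself, this ratio is not independent evidence.

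*CHD8* to *CHD7* was the other pair with a low raw p, with a log2 ratio of 0.77 ± 0.22 in WT and 0.16 ± 0.27 in *SOX2* KO embryos (SD, n = 5 each, difference -0.61, exact permutation p = 0.0159, adjusted 0.0952). The groups met at nc3 and ko3. The other 10 pairs had exact permutation p of 0.103 or more, and 0 of 12 passed after adjustment. With 12 pairs and 5 embryos a group, a single separated pair cannot reach an adjusted p below 0.0952. For *SMARCA4* to *SMARCA2* the log2 ratio was 3.82 ± 0.58 in WT and 3.82 ± 1.08 in *SOX2* KO embryos (SD, n = 5 each), and for *ARID1A* to *ARID1B* the difference was 0.09 (exact permutation p = 0.786). *MBD3* to *MBD2* differed by 0.23 and *BRD9* to *BRD7* by 0.32, both within the spread between embryos (exact permutation p = 0.651 and 0.111).

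**Figure D5:**
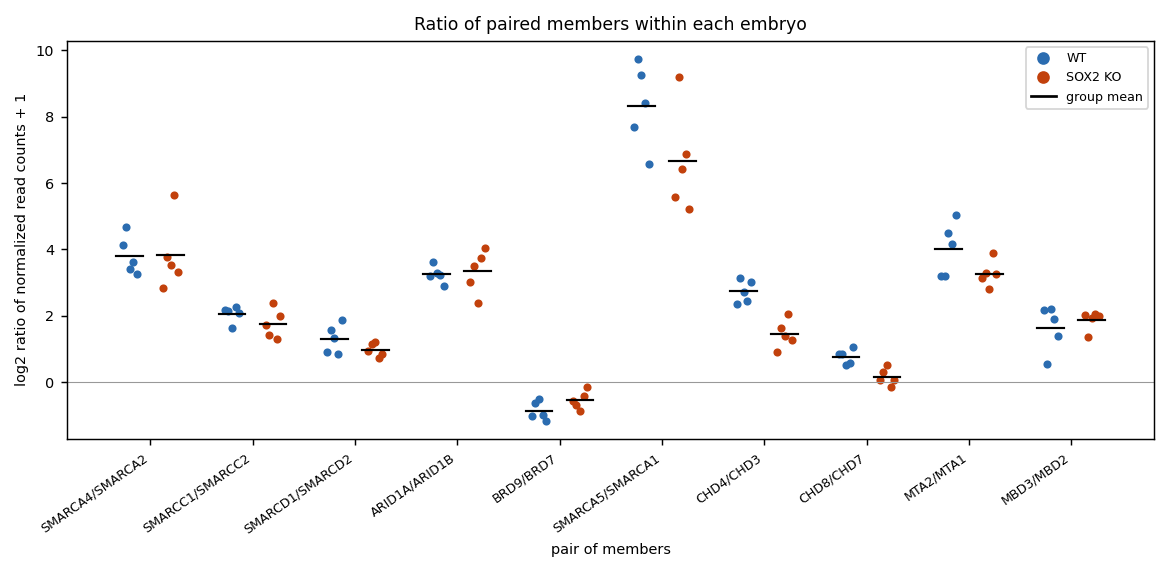
Log2 ratio of normalized read counts + 1 (y axis) for 10 of the 12 pairs of members (x axis) in each WT embryo (blue) and *SOX2* KO embryo (red), with a black line at each group mean. *CHD4*/*CHD3* is the pair without overlap between the groups, at 2.36 to 3.14 in blue and 0.90 to 2.05 in red.

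The members act with other subunits and relatives, of which 74 distinct genes were tested. Of these, 0 were called higher and 2 lower, the ATPase gene *HLTF* and the acetyltransferase gene *KAT2B*, while 1 passed the adjusted p alone as higher and 13 as lower. The 2 called lower were 2.70% of 74, beside 1.16% of all genes and 1.90% of those with a mean of 10 or more. The 13 were 17.6%, beside 3.20% of all genes, a share not taken among genes with a mean of 10 or more. Because the partner lists were chosen with earlier results of these data known, their shares are descriptions only. DESeq2 and edgeR also called 0 higher, and 1 partner had an unadjusted limma p under 0.05 in that direction, against 19 (25.7%) in the other, where 8.37% of all genes and 13.9% of those with a mean of 10 or more had one. In total 53 of 74 (71.6%) lay below 0, with a median log2 fold change of -0.21, beside 37.1% of all genes and 53.1% of those with a mean of 10 or more, which 73 of the 74 reached. *HLTF*, a SNF2-type enzyme of replication fork repair, was at 220, 230, 196, 246 and 216 in WT and at 77.9, 95.1, 55.8, 44.4 and 61.1 in *SOX2* KO embryos. The groups lay far apart, and *HLTF* fell by 1.76 on the log2 scale (SE 0.20, limma adjusted p = 1.8e-05). *KAT2B* (PCAF), a bromodomain acetyltransferase, was at 155, 178, 168, 135 and 165 in WT and at 81.3, 68.7, 74.4, 79.7 and 43.8 in *SOX2* KO embryos. It fell by 1.22 on the log2 scale, again without overlap (SE 0.19, limma adjusted p = 0.000624). Both calls were kept when any 1 embryo was left out, but *KAT2B* came under the fold change threshold with the *RN18S1* share as a covariate (-0.97, adjusted p = 0.0396).

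Among the 11 other SNF2-type ATPases, *RAD54L*, of homologous recombination, was the next after *HLTF* (log2 fold change -0.92, limma adjusted p = 0.00504), and 5 of 11 passed the adjusted p as lower. Among the 19 other bromodomain genes, 6 passed as lower, with *BRPF3*, a scaffold of HBO1, at -0.67 (limma adjusted p = 0.00989). Of the 7 NuRD partners, the deacetylase gene *HDAC2* passed the adjusted p with a log2 fold change of -0.94 (limma adjusted p = 0.00523). Its values were 172, 228, 163, 297 and 222 in WT and 108, 123, 97.7, 148 and 81.9 in *SOX2* KO embryos. All *SOX2* KO embryos were below all WT embryos. Its paralog *HDAC1* had a log2 fold change of -0.48 and did not pass (limma adjusted p = 0.0685).

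Of the 11 ISWI partners, *BAZ2B*, a bromodomain gene, was the 1 that passed the adjusted p as higher, from 50.1 ± 16.3 to 99.1 ± 26.2 (SD, n = 5 each, log2 fold change 0.99, limma adjusted p = 0.0114), just under the fold change threshold. *BAZ1B* (WSTF) was at -0.36 (limma adjusted p = 0.127). Among 14 partners of INO80, SRCAP and TIP60, *DMAP1* passed the adjusted p with a log2 fold change of -0.65 (limma adjusted p = 0.0494), and the ATPase gene *RUVBL2* was next with -0.32 (limma adjusted p = 0.242). Of 14 SWI/SNF partners 0 passed, and *ACTL6A* (BAF53A), an actin-related subunit, came nearest with -0.49 (limma adjusted p = 0.0574), followed by *DPF3* with 0.58 (limma adjusted p = 0.161).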

How the data were processed

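The authors trimmed the reads (Smart-seq2, paired-end, 150 bp) with Trimmomatic, aligned them to ARS-UCD1.2 using Hisat2, obtained gene counts from featureCounts and scaled these by DESeq2 size factors. The deposited values are thus a normalized signal, here called normalized read counts. The annotation release, strand setting and treatment of multi-mapping reads are not given in the sources used here, so paralogs and overlapping genes could share reads. RefSeq of ARS-UCD2.0 matched 47 of 47 members and was used for names and overlaps only. The span of 15 members overlaps another gene of the table.

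Within each embryo, every value was a whole multiple of 1 step (201120 of 201120, relative tolerance 1e-06), which gave back the reads, without molecular identifiers. No gene has fewer than 11 reads in total, and 3 reads in an embryo were taken as the floor. Columns were assigned to groups by name.

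limma 3.58.1 (lmFit, eBayes with trend) was run on log2(normalized read count + 1) for the 20056 genes whose mean reached 1, in all 10 embryos without covariates. The pseudocount makes fold changes of low genes too small. Alternatives were DESeq2 1.42.0 and edgeR 4.0.16 on the recovered reads, pseudocounts, filters, scalings, quality weights, covariates and leaving out each embryo (R 4.3.3). Ratios were compared in Python 3.11.15 with scipy 1.17.1.

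The members, lists of subunits and markers, and pairs were chosen with earlier results of these data known. Values in every embryo are given for called members, the 8 others with the smallest limma p and 10 central members, of which 1 is counted but not reported here. Of partner genes, the called ones and the 2 with the smallest p per list were named. *LOC107132610* and *RNF227*, and the values of *HDAC2* in every embryo, were added after they had been seen.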

Additional observations from a re-analysis of the deposited data

Results flagged for a closer look

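In each group of 5 embryos the highest and lowest value of every member were compared with the other 4, and 7 of the 94 groups held an embryo far from the rest, where chance alone gives about 5 in 100 (4.7 of 94). In WT embryos, *SMARCC2* was at 127 in nc3 against 71.7 to 78.6 in the other 4, and *MBD2* was at 53.4 in nc2 against 26.7 to 33.1. In *SOX2* KO embryos, ko4 was high for *SMARCA5*, at 702 against 555 to 590, and low for *SMARCAL1*, at 56.7 against 72.4 to 76.7. The embryo ko3 was low for *BRD1*, at 45.4 against 55.3 to 59.1, and high for *MTA1*, at 12.8 against 4.11 to 5.77. Of the called members, *SMARCD3* was low in ko1, at 14.5 against 25.4 to 28.8.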

How the results depend on the processing

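The number of members called higher, 2 as reported, was 1 with a pseudocount of 5, with equal totals and with quantile normalization, 0 with *RN18S1* share as a covariate, and 1 to 4 when 1 embryo was left out. DESeq2 and quality weights each added 1 call, while edgeR and the *XIST* covariate called *CHD5* but not *CHD3*. The 4 without ko2 were *CHD3*, *SMARCD3*, *CHD5* and *SMARCA1*. Members called lower were 2 without a threshold on the fold change and 0 otherwise. Partner genes called higher, 0 as reported, were 1 with the median log ratio, quantile normalization, no fold change threshold, quality weights, the *RN18S1* covariate or the *XIST* covariate, and 0 to 1 when 1 embryo was left out. Partner genes called lower, 2 as reported, were 4 with equal totals or edgeR, 13 without the fold change threshold and 1 with the *RN18S1* covariate. No member past the adjusted p changed sign, but 22 other members did in at least 1 alternative, *MTA1* (0.59) with quantile normalization being the largest. The members' median, -0.04 as reported, ran from -0.16 with equal totals to 0.06 with the median log ratio. Over all genes, 1792 higher and 232 lower calls became 629 and 447 with quantile normalization, which moved the median of all genes from 0.25 to -0.02, 1002 and 183 with a pseudocount of 5, 3229 and 286 with quality weights, 137 and 83 with the *RN18S1* covariate, 502 and 190 with a mean of at least 10, and 754 to 3050 higher when 1 embryo was left out. The causes were not tested. No paired analysis was possible because KO columns are numbered otherwise than the KO labels.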

Other observations

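The log2 ratio of *SMARCD1* to *SMARCD3* within an embryo, a pair added after the values were seen and not tested, covered 3.76 to 5.15 among the WT and 2.15 to 3.32 among the *SOX2* KO embryos, without overlap. The ratio of *CHD4* to *CHD5*, added in the same way, covered 3.71 to 5.04 and 1.97 to 3.98, and the groups overlapped.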
